A study of Mus musculus with 32 samples.

Results

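The 10 tumors described here were chosen by 1 measured value, the level of Il1b, the gene for interleukin-1 beta. They are the 5 tumors with the highest and the 5 with the lowest Il1b among 16 tumor arrays, of 32 arrays in all. The level of a gene is the log2 brightness of its probe minus the log2 of the array's 75th percentile, so that a difference of 1 is a 2-fold difference. Tumors are named by the host numbers of their titles, with a T. Il1b was read from its probe with the highest mean over the tumors. Because Il1b chose the sets, its difference between them is given as a description with no test. Its level over all tumors is compared by host label and with the stroma further on.

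MCG 101 is a transplantable mouse sarcoma line, and its cells were grown on mice with an intact gene for the prostaglandin E2 receptor EP2 (Ptger2) and on EP2 knockout mice. The knockout is of the host, so the 16 tumors share the implanted MCG 101 line. They comprised 8 tumors from wild-type hosts and 8 from knockout hosts, each with 4 female-labelled and 4 male-labelled mice. The other 16 arrays held the tumor stroma, 8 from each genotype. Host age, the time of growth and any further treatment were not given in the sources used here. Total RNA of whole tissue was measured, so more cells of a type and more RNA of a gene per cell cannot be told apart.

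Interleukin-1 beta is made as a precursor by activated neutrophils, monocytes and macrophages, is cut by caspase-1 in the inflammasome, and acts on the receptor Il1r1 with its partner Il1rap. The receptor signals through Myd88 to NF-kB, which switches on chemokines that draw neutrophils through Cxcr2, the cytokine Il6, and Ptgs2, the inducible cyclooxygenase that starts prostaglandin E2 synthesis. The antagonist Il1rn and the decoy receptor Il1r2 hold the signal back. In tumors, interleukin-1 beta is known for its link to infiltrating myeloid cells.

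The 300 bases around the start of 4 genes are shown because these genes carry the results: Il1b itself, Socs3, which followed it most closely, and Il6 and Cxcl1, a cytokine and a neutrophil chemokine known as interleukin-1 targets. They come from RefSeq (GRCm38.p6), run 5′ to 3′ on the gene's own strand from 250 bases before the start to 50 after it, and lie at chr2:129371090-129371389 (minus strand) for Il1b, chr11:117969317-117969616 (minus strand) for Socs3, chr5:30012864-30013163 (plus strand) for Il6 and chr5:90890995-90891294 (plus strand) for Cxcl1. Capitals mark matches, on either strand, to the kappa B motif of NF-kB, to C/EBP (TTGCNNAA), to STAT (TTCNNNGAA) or to AP-1 (TGANTCA).
Il1b: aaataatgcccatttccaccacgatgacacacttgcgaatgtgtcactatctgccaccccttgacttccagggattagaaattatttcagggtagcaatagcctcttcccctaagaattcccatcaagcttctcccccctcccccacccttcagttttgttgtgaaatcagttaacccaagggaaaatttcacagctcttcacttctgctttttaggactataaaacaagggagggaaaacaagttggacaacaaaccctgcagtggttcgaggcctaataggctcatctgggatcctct
Socs3: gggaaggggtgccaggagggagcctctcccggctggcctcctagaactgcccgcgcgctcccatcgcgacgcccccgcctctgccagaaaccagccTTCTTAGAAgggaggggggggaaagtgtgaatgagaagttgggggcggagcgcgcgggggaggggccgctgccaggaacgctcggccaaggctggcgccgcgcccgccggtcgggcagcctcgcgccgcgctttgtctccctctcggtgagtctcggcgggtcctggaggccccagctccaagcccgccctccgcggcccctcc
Il6: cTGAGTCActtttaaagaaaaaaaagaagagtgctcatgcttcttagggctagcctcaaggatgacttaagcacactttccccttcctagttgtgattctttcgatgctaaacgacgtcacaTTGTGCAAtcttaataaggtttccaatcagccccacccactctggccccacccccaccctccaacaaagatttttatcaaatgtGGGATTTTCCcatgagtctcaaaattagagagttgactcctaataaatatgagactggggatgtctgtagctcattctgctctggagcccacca
Cxcl1: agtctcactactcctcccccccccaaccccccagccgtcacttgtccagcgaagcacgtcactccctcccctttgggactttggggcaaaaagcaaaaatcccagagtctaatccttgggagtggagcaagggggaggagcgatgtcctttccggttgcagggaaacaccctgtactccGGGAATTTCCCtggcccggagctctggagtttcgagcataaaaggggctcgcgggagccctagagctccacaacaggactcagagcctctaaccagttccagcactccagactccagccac
The Il1b window held no match to the 4 motifs. The Socs3 window held 1 STAT match whose first base was at -154. The Il6 window held an AP-1 match at -249, a C/EBP match at -128 on the other strand and a kappa B match at -44. In the Cxcl1 window 2 kappa B matches on opposite strands overlapped, at -71 and -70. Among 32851 promoter windows of this length, 8.46% held a kappa B match, 10.8% a C/EBP match, 8.30% a STAT match and 7.81% an AP-1 match. These matches describe the letters in the windows only.

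Il1b spanned a 64.2-fold range over the 16 tumors, a difference of 6.0 on the log2 scale, and was well above background on all of them. The high set comprised wild-type tumor T82 at 5.13, wild-type tumor T65 at 4.32, knockout tumor T81 at 3.83, wild-type tumor T9 at 3.81 and knockout tumor T15 at 2.34, with a mean of 3.88 ± 1.01 (SD, n = 5). The low set comprised knockout tumor T149 at -0.16, wild-type tumor T1 at -0.22, wild-type tumor T68 at -0.49, knockout tumor T12 at -0.82 and knockout tumor T59B at -0.88, with a mean of -0.51 ± 0.33 (SD, n = 5). The other 6 tumors lay between 0.21 and 1.29. Just outside the sets were knockout tumor T99 at 1.29, which lay 1.06 below tumor T15, and wild-type tumor T5 at 0.21, which lay 0.37 above tumor T149. Within the high set the gap between tumors T9 and T15 was 1.46. A second Il1b probe ordered the tumors alike (rank correlation 0.918), gave the same 5 high tumors and 4 of the same 5 low tumors.

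**Figure D1:**
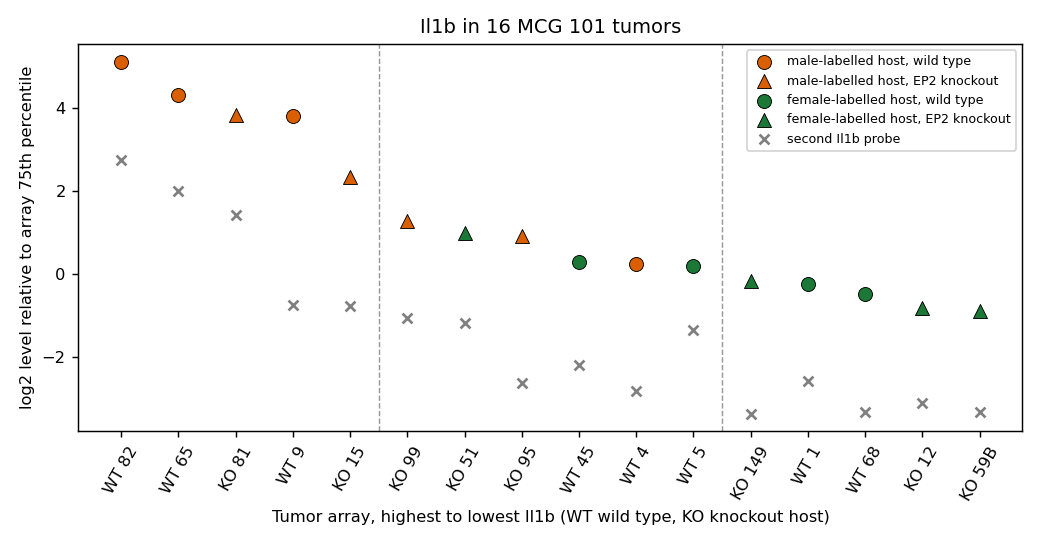
Il1b level (log2 relative to the array's 75th percentile) on each of the 16 tumor arrays, ordered from highest to lowest, with host genotype and sex label marked. The 5 high tumors lie between 2.34 and 5.13, the 5 low tumors between -0.88 and -0.16, and the 6 tumors between them from 0.21 to 1.29.

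Host labels were unequally spread over the sets, and this bears on every comparison that follows. All 5 high tumors carried a male label and all 5 low tumors a female label, so high Il1b and male sex label cannot be told apart in the comparison of 5 with 5. The high set held 3 wild-type and 2 knockout hosts and the low set 2 and 3. Eif2s3y, a Y-linked gene, was higher in the high set by 4.61 and well above background on 5 of 5 high and 1 of 5 low arrays. Xist, the RNA of the inactive X chromosome, was well above background on 0 of 5 high and 3 of 5 low arrays. Knockout tumors T95 and T99 were both male-labelled and lay between the sets. The Y-linked gene Ddx3y was at -7.10 and -7.34 in them, within the range of the female-labelled tumors, and it was well above background on 3 of the 8 male-labelled arrays. In tumor T99 Xist was well above background and Eif2s3y was not, against its label. In tumor T95 Eif2s3y was well above background at -3.64, higher than in any female-labelled tumor (-4.41 at most). Xist was not well above background there, at -5.29, lower than in any female-labelled tumor (-5.01 at least). Both genes thus went with the male label of T95, unlike Ddx3y. The arrays' 75th percentiles ran from 402 to 1082 in the high set and from 733 to 1012 in the low set. The 3 dimmest of all 16 tumor arrays were in the high set: wild-type tumors T9 (402), T82 (484) and T65 (557). The next was knockout tumor T95 (662), which lay between the sets. Over 25157 genes all 16 tumor arrays correlated better with the mean of the other tumors than with the mean stroma array. Their correlation with the mean stroma array ran from 0.881 to 0.949 in the high set, highest in knockout tumors T81 and T15, and from 0.879 to 0.944 in the low set. The part of array brightness and of stroma in the results was not tested beyond the scaling alternatives given in the closing section.

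By sex label, Il1b was 2.74 ± 1.78 in male-labelled and -0.13 ± 0.63 in female-labelled tumors (SD, n = 8 each). The difference of 2.87 gave p = 0.000932 in a two-sided exact permutation test over all splits of 8 against 8, a comparison chosen after the ranking was seen. Within slides, the male-labelled tumors were higher by 1.07 to 5.35 on all 5 slides that held both labels. In wild-type hosts alone the difference was 3.43 and in knockout hosts alone 2.31, each with an exact p of 0.0571, where 4 against 4 cannot go below 0.0286. Leaving out tumors T95 and T99 gave 3.41 (exact p = 0.002), and leaving out T99 alone 3.08 (exact p = 0.00186). By host genotype, Il1b was 0.94 ± 1.61 in knockout and 1.66 ± 2.32 in wild-type tumors (SD, n = 8 each), a difference of -0.72 that did not exceed the spread between tumors (exact permutation p = 0.472). The genotype difference was 3.53, 1.04 and -3.60 within slides 2, 3 and 4, the 3 slides that held both genotypes. Each held 1 knockout tumor: male-labelled T81 on slide 2, male-labelled T95 on slide 3 and female-labelled T12 on slide 4. On slide 3, T95 was at 0.92, above wild-type tumors T4 (male-labelled, 0.25) and T68 (female-labelled, -0.49). On slide 4, T12 was at -0.82, below wild-type tumors T5 (female-labelled, 0.21), T9 and T65 (male-labelled, 3.81 and 4.32). What set the direction on each slide was not tested. On slide 2, where the wild-type tumor was female-labelled T45, genotype and sex label cannot be told apart.

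Across 25500 genes, the rank correlation with Il1b over the 16 tumors was the test, with two-sided p-values from 100000 random orders and Benjamini-Hochberg adjustment over all genes. No gene passed an adjusted p under 0.05 (0.0% rising and 0.0% falling), and the smallest adjusted p was 0.109, while 2580 genes had an unadjusted p under 0.05. The smallest p that 100000 orders can give is 1e-05, which limits the adjusted values. With 10000000 orders, 3 genes passed, all rising with Il1b (0.0118%): Socs3 (adjusted p = 0.0332), Hdc (adjusted p = 0.0485) and the unnamed transcript AK087121 (adjusted p = 0.0485). A limma slope on Il1b, which assumes normal residuals and gives weight to the size of Il1b as well as its order, called 257 genes rising (1.01%) and 127 falling (0.498%). With host genotype and sex label as covariates, limma called 44 rising (0.173%) and 8 falling (0.0314%), and with slide as a fixed block 74 rising (0.29%) and 7 falling (0.0275%). A gene is called rising or falling with Il1b where it passed limma's slope test at an adjusted p under 0.05, and the covariates are named where it also passed with them. The planned call was the rank correlation with 100000 orders, which passed 0 genes, so calls by limma's slope rest on an alternative to it. Counts of list members are to be read against these shares. Of the 59 named genes that passed the slope test, 25 also passed with slide as a block, and the other 34 had adjusted p-values from 0.0507 to 0.348 there. A further limma fit took all 32 arrays, with a mean and an Il1b slope for each tissue and the replicate block (host number). Its tested slope was that of the tumors alone, so it is no check of these genes across both tissues. The stroma arrays entered only through the residual spread and the block. In this fit 41 of the 59 passed. The 18 that did not were Il1rl1, Serpind1, Mamstr, Dyrk1b, Eif2s3y, Osr2, Aspa, Sertad4, Il11, Arg1, Pla2g4a, Ptgs2, Nr4a1, Fos, Adam8, Timp1, Mertk and Slc2a3 (adjusted p = 0.0911 to 0.741), and the same 18 did not pass over the 32 arrays without the block either.

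In the comparison of 5 with 5, 341 genes were higher in every high tumor than in any low tumor (1.34%) and 630 were lower (2.47%). Of the 257 genes that rose by limma, 163 (63.4%) were among those 341 (47.8% of them). Of the 127 that fell, 102 (80.3%) were among the 630 (16.2% of them). These lists come from the same tumors and Il1b values, so an overlap is built in. The median gene had a rank correlation of -0.05 and a difference of -0.05, against which the values of the lists below are given. Both counts depended on which tumors made up the high set: where 1 high tumor was left out and the next in rank filled its place, 169 to 257 genes were higher and 181 to 259 lower. The lists were chosen with earlier results of these data known, so their counts are descriptions.

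Socs3, the feedback inhibitor of the Il6 receptor family, followed Il1b most closely (rank correlation 0.93, Pearson's r 0.93 with a permutation p of 1e-05, the smallest the orders can give). From highest to lowest Il1b, Socs3 was 6.22, 5.83, 5.48, 5.30 and 5.41 in the high set and 4.47, 4.02, 3.88, 4.48 and 4.46 in the low set, with the other 6 tumors at 4.54 to 4.79 with a median of 4.63. The high set lay above all 11 other tumors, and the low set below the lowest of the middle 6. Its difference was 1.39 and its slope 0.30 ± 0.03 (SE) per unit of Il1b (limma adjusted p = 0.000253). With genotype and sex label in the model the slope was 0.28 and no longer passed (limma adjusted p = 0.0665). Without the 2 tumors farthest from the median Il1b, Pearson's r of Socs3 was 0.87.

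Hdc, the enzyme that makes histamine and a gene of neutrophils, mast cells and basophils, had the next rank correlation (0.90) among genes with a RefSeq symbol, after the unnamed transcript AK087121 among all genes. Hdc was 4.35, 3.35, 0.95, 2.24 and -0.21 in the high set, -0.72, -0.73, -0.91, -1.31 and -1.44 in the low set, and -1.23 to -0.27 with a median of -0.39 in the 6 others. Tumor T15 overlapped none of the low tumors but lay within 1 log2 unit of 3 of them, while tumors T82 and T65 stood more than 4 units above. The slope of Hdc was 0.81 ± 0.09 (SE; limma adjusted p = 0.000168) and 0.98 with genotype and sex label (limma adjusted p = 0.000893). Its rank correlation was 0.95 among the 8 male-labelled and 0.98 among the 8 female-labelled tumors.

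Among genes with a RefSeq symbol and a probe well above background throughout the brighter set of 5, the other members of the 12 highest rank correlations were Serpind1 (0.89), a coagulation inhibitor, Il13ra1 (0.89), a receptor chain for interleukin-13, Hcar2 (0.88), the niacin receptor of myeloid cells, Junb (0.87), an AP-1 subunit, Bcl3 (0.87), an atypical I-kappa-B protein, Sod2 (0.86), the mitochondrial superoxide dismutase, Clec4e (0.86), a C-type lectin of myeloid cells, Osm (0.85), Ccrl2 (0.85), a chemerin-binding receptor, and Tlr6 (0.85), a partner of Tlr2. All of these except Sod2 (limma adjusted p = 0.106) rose by limma's slope. With genotype and sex label Hcar2, Clec4e, Osm, Ccrl2 and Tlr6 still rose, and Serpind1, Il13ra1, Junb and Bcl3 had adjusted p-values of 0.177, 0.133, 0.0889 and 0.134.

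**Figure D2:**
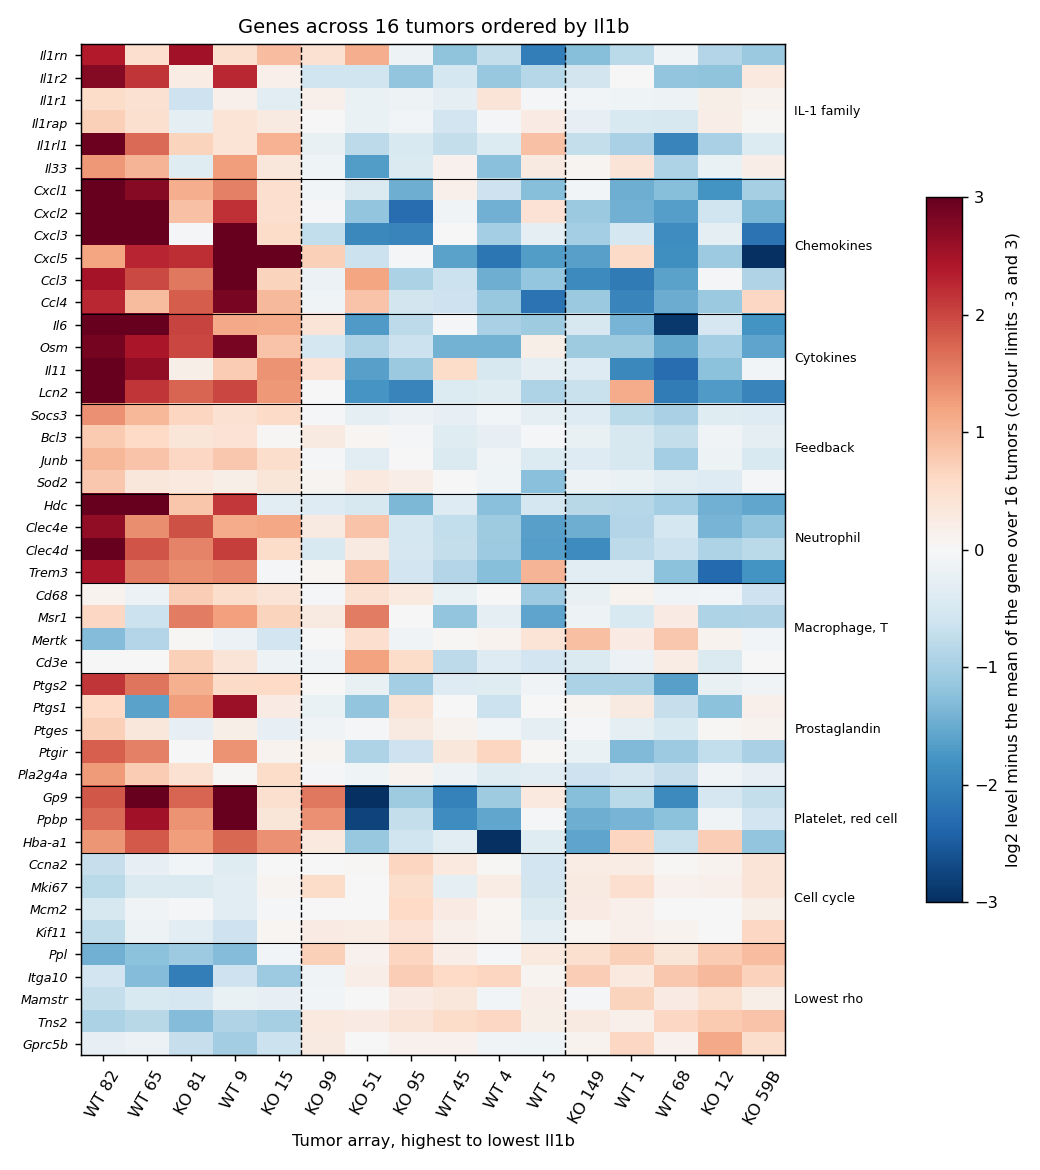
Heat map of selected genes (rows, by group) on the 16 tumor arrays (columns, from highest to lowest Il1b, with dashed lines between the sets). Colour is the log2 level minus the gene's mean over the tumors, from -3 (blue) to 3 (red). Hdc, Il6 and Il11 are reddest in wild-type tumors T82 and T65, Cxcl5 in wild-type tumor T9, and Tns2 is blue in all 5 high tumors and Ppl in 4, with Ppl near white in knockout tumor T15. The red of Hdc is absent in knockout tumor T15, whose level was -0.21.

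Of the IL-1 family, 10 of 16 listed genes were tested, 9 had rank correlations above 0, and 3 rose by limma: the antagonist Il1rn, the decoy receptor Il1r2, and Il1rl1, the receptor for interleukin-33. The median rank correlation of the 10 was 0.45 and their median difference 0.76. Their mean level ran from 0.94 to 1.66 in the high set and from -0.06 to 0.52 in the low set. Il1a was well above background on 1 tumor array and was not tested.

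Il1rn was 2.22, 0.36, 2.38, 0.32 and 0.77 in the high set and -1.43, -0.97, -0.26, -1.04 and -1.26 in the low set. The sets did not overlap, and tumors T81 and T82 were the highest. The slope was 0.53 ± 0.10 (SE; limma adjusted p = 0.0121), and the adjusted p with genotype and sex label was 0.141. Il1r2 was 2.61, 2.01, 0.08, 2.13 and 0.0 in the high set and -0.70, -0.13, -1.32, -1.35 and 0.15 in the low set, where knockout tumor T59B exceeded tumors T81 and T15. Il1r2 had a rank correlation of 0.57 and a slope of 0.54 ± 0.09 (SE; limma adjusted p = 0.00663), and its rank correlation without the 4 highest tumors was 0.08. Il1rl1 was 6.31, 5.05, 4.03, 3.77 and 4.40 in the high set and 2.65, 2.38, 1.39, 2.38 and 2.94 in the low set, with no overlap, and its slope was 0.51 ± 0.09 (SE; limma adjusted p = 0.0056). Il1rl1 did not pass with slide as a block (adjusted p = 0.106), with genotype and sex label (adjusted p = 0.179) or over all 32 arrays with the replicate block (adjusted p = 0.419).

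The signalling receptor Il1r1 differed little between the sets. Il1r1 was 3.1, 3.01, 1.92, 2.69 and 2.22 in the high set and 2.47, 2.41, 2.38, 2.71 and 2.64 in the low set, a difference of 0.07 with a rank correlation of 0.09. Without the 2 tumors farthest from the median its rank correlation was -0.37. Among wild-type tumors alone Il1r1 had a rank correlation of 0.71 and among knockout tumors alone -0.71. The slope in wild-type minus knockout tumors was 0.25 ± 0.07 (SE) and did not pass (limma adjusted p = 0.132). The accessory chain Il1rap had a rank correlation of 0.45 and a difference of 0.51 (limma adjusted p = 0.204). The inflammasome-processed cytokine Il18 had 0.45 and 0.72, its inhibitor Il18bp 0.38 and 0.49, its receptor chains Il18rap 0.60 and 0.82 and Il18r1 -0.17 and -0.41, and Il33 0.34 and 0.80. None of these passed. Among 17 inflammasome and pyroptosis genes, 1 rose (Casp4, a caspase activated by endotoxin, difference 1.02, limma adjusted p = 0.0486), 0 fell, and the median rank correlation was 0.14. Nlrp3 was well above background on 0 tumor arrays.

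Of all lists, the neutrophil chemokines had the largest median difference. Of 8 tested genes of neutrophil chemokines and growth factors, 5 rose and 0 fell, the same 5 had no overlap between the sets, and the median difference was 3.0. Their mean level ran from -0.97 to 1.43 in the high set and from -2.56 to -1.96 in the low set. Cxcl1 and Cxcl2 also rose with genotype and sex label in the model.

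Cxcl1, a Cxcr2 ligand, was 7.13, 6.40, 4.76, 5.19 and 4.16 in the high set and 3.59, 2.20, 2.40, 1.87 and 2.68 in the low set, with 2.20 to 3.81 with a median of 3.14 in the other 6. Every high tumor lay above the other 11. The slope was 0.72 ± 0.08 (SE; limma adjusted p = 0.000158) and 0.82 with genotype and sex label (limma adjusted p = 0.0128). Cxcl2, another Cxcr2 ligand, was 1.27, 0.86, -1.68, -0.36 and -2.06 in the high set and -3.67, -4.01, -4.21, -3.15 and -3.94 in the low set. Its slope was 0.81 ± 0.11 (SE; limma adjusted p = 0.0015) and 0.99 with the covariates (limma adjusted p = 0.0178).

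Cxcl5, a further Cxcr2 ligand, was -0.16, 0.95, 0.88, 2.91 and 1.70 in the high set and -2.97, -0.76, -3.19, -2.43 and -4.90 in the low set. It was highest in wild-type tumor T9, not in the tumors with the most Il1b, and had the largest difference of the list, 4.11. Its slope was 0.89 ± 0.16 (SE; limma adjusted p = 0.00943), and the adjusted p with covariates was 0.25. Cxcl3 had a difference of 3.56 (limma adjusted p = 0.00663) and was well above background on 4 of 5 low arrays. Ppbp, a chemokine of platelets, had a difference of 3.02 (limma adjusted p = 0.0302). The platelet chemokine Pf4 (1.55) and the growth factors Csf2 (1.78) and Csf3 (2.64), which support granulocytes, did not pass (limma adjusted p = 0.128, 0.149 and 0.0912). Csf2 was well above background on 6 of 16 arrays.

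**Figure D3:**
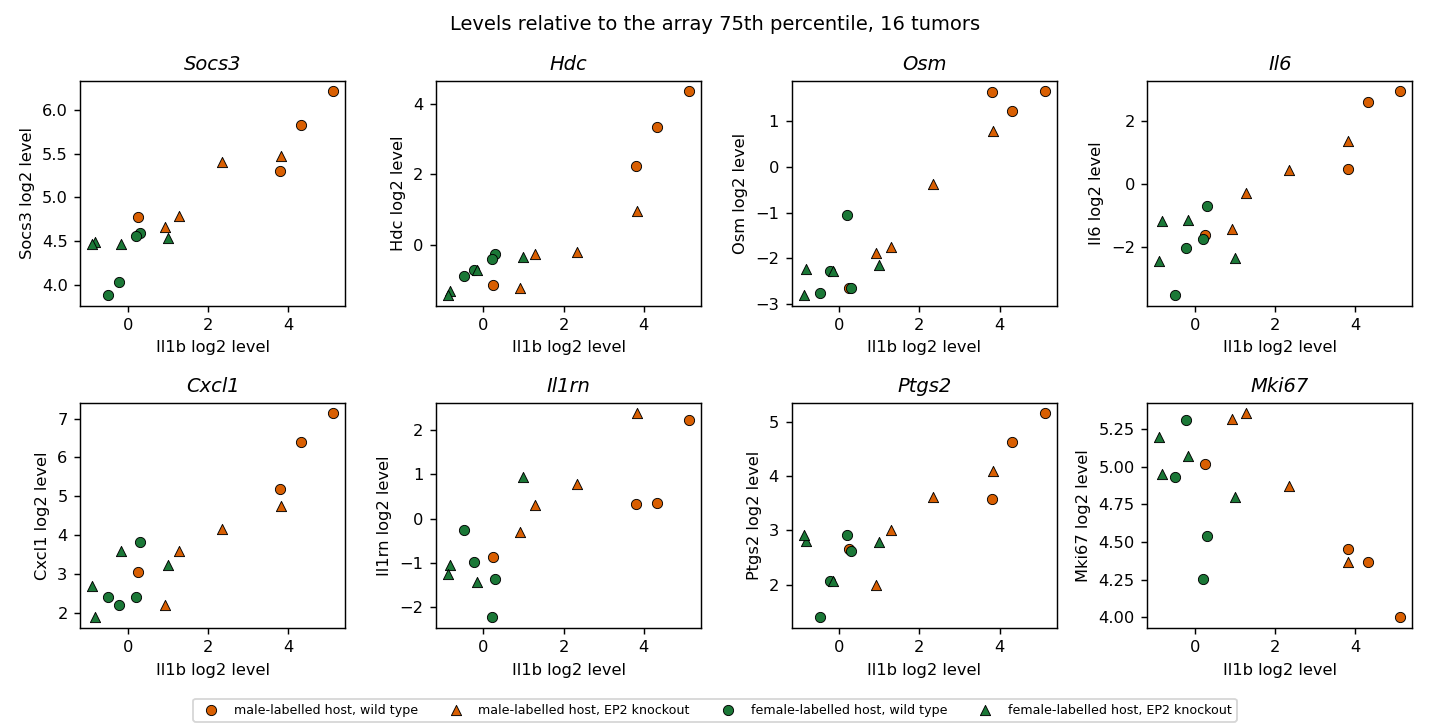
Levels of 8 genes against Il1b (both log2 relative to the array's 75th percentile), 1 point per tumor. Colour marks the sex label and shape the host genotype. For Socs3, Osm, Il6, Cxcl1 and Ptgs2 the 5 high tumors lie above all others, for Il1rn knockout tumor T51 reaches into their range, and Mki67 lies lowest in wild-type tumor T82.

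Of 13 inflammatory cytokines tested, 13 had rank correlations above 0, 4 rose (Osm, Il6, Il11 and Lcn2) and 0 fell, with a median difference of 1.80. Osm, a gp130 cytokine of neutrophils and macrophages, was 1.66, 1.22, 0.79, 1.63 and -0.37 in the high set and -2.29, -2.29, -2.76, -2.24 and -2.81 in the low set, and -2.65 to -1.05 with a median of -2.02 in the other 6. Its slope was 0.80 ± 0.07 (SE; limma adjusted p = 3.01e-05) and 0.87 with genotype and sex label (limma adjusted p = 0.00393), the 1 cytokine of the list that rose in that model. Il6 was 2.96, 2.62, 1.36, 0.48 and 0.45 in the high set and -1.16, -2.05, -3.56, -1.17 and -2.46 in the low set, in the same order as Il1b among the high tumors. Its slope was 0.85 ± 0.10 (SE; limma adjusted p = 0.000288), and the adjusted p with covariates was 0.0632. Il11, another gp130 cytokine, differed by 2.87 and Lcn2, an iron-carrier-binding protein induced by interleukin-1, by 3.22.

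Among 30 Toll-like receptor and NF-kB feedback genes, 4 rose (Cd14, Tlr6, Bcl3 and Tnfaip2) and 0 fell, 8 were higher with no overlap, and the median difference was 0.60. Cd14, the endotoxin co-receptor, was 4.27, 3.50, 3.02, 3.63 and 2.65 in the high set and 1.22, 1.72, 1.38, 1.71 and 1.73 in the low set. Its slope was 0.44 ± 0.04 (SE; limma adjusted p = 6.05e-05) and 0.45 with covariates (limma adjusted p = 0.0124). Tlr6 was the other member that rose in that model (limma adjusted p = 0.0102). Of 14 CC chemokines, Ccl3 and Ccl4, which attract monocytes and other leukocytes, rose. Ccl3 was 2.08, 1.57, 1.16, 2.63 and 0.26 in the high set and -2.33, -2.55, -2.02, -0.49 and -1.31 in the low set, and rose with covariates too (limma adjusted p = 0.0243). Ccl2, the main monocyte attractant, differed by 1.36 (limma adjusted p = 0.403).

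Of the cell type lists, neutrophil markers held the highest count of rising genes. Of 34 tested, 24 rose, 0 fell, 13 were higher with no overlap, and 7 rose with genotype and sex label in the model. The median rank correlation was 0.71 and the median difference 2.42. The mean level of the 34 ran from -1.25 to 1.30 in the high set, from -2.40 to -1.48 in the low set and from -2.23 to -1.11 in the other 6. Il1r2 is counted here and among the IL-1 family. Besides Hdc, the named members Clec4e, Clec4d and Trem3 rose in both models. Clec4e was 2.74, 1.49, 2.0, 1.20 and 1.25 in the high set and -1.38, -0.78, -0.44, -1.31 and -1.10 in the low set (slope 0.63 ± 0.07 (SE), limma adjusted p = 0.000151). Clec4d, its neighbouring lectin gene, was 4.85, 3.53, 3.13, 3.72 and 2.19 in the high set and -0.25, 0.85, 0.99, 0.71 and 0.84 in the low set. Trem3, an activating receptor, differed by 2.57 and was well above background on 4 high arrays and 1 low array.

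The defining neutrophil genes, named here after their values were seen, did not all move alike. S100a8, a subunit of calprotectin, was 6.53, 5.71, 2.81, 4.41 and 1.86 in the high set and 1.65, 1.71, 0.28, 1.55 and 0.76 in the low set, with no overlap. S100a9, its partner, was 8.52, 7.81, 4.93, 7.24 and 3.91 in the high set and 4.07, 3.77, 2.29, 3.65 and 2.86 in the low set, where tumor T149 exceeded tumor T15. Both rose (limma adjusted p = 0.00439 and 0.00481), and with genotype and sex label their adjusted p-values were 0.0537 and 0.0556. Cxcr2, the receptor of the chemokines above, was 0.94, -0.21, -1.44, 0.61 and -1.72 in the high set and -2.39, -2.03, -3.18, -3.54 and -3.17 in the low set, with a slope of 0.57 ± 0.11 (SE; limma adjusted p = 0.0122). Csf3r, the granulocyte growth factor receptor, was 5.80, 5.72, 5.02, 6.67 and 6.23 in the high set and 6.41, 5.80, 6.23, 5.41 and 5.72 in the low set, a difference of -0.03 with overlapping sets. Ly6g had no probe by that name. In these tumors, more neutrophils and more neutrophil RNA per cell cannot be told apart, and the part of the neutrophil genes in the other results was not tested.

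Over all 16 tumors, other cell types stood closer to the background of all genes. Of 22 macrophage markers 0 rose and 1 fell, Mertk, a receptor for dying cells (difference -0.98, limma adjusted p = 0.0458), and their mean level ran from -1.04 to 2.01 in the high set and from -0.70 to 0.32 in the low set. Cd68, a lysosomal protein of macrophages, differed by 0.50 (limma adjusted p = 0.356). Of 13 monocyte markers 1 rose (Nr4a1, an immediate-early gene also induced outside monocytes), with a median difference of 0.79. No gene passed among 18 T cell, 13 cytotoxic and NK cell, 7 B and plasma cell, 14 dendritic cell and MHC class II, or 9 mast cell and eosinophil genes, whose median rank correlations were 0.04, -0.14, 0.04, 0.24 and 0.24. The T cell chain Cd3e differed by 0.35. Type I interferon (17 genes) and interferon gamma (17 genes) responses had 0 genes that passed and median differences of 0.64 and 0.56. Skeletal muscle markers ranged from -3.26 to 5.62 in mean level within the high set and from -3.72 to 4.76 within the low set, with a median rank correlation of -0.03, and 1 of 13 adipocyte markers passed (Retn).

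Medians over all tumors hid opposite directions in the 2 host genotypes. Among the 8 wild-type and the 8 knockout tumors the median rank correlation of all genes was 0.05 and -0.24. That of macrophage markers was -0.24 in wild-type and 0.71 in knockout tumors, of T cell markers -0.51 and 0.57, and of cytotoxic and NK cell genes -0.55 and 0.31. B and plasma cell markers had -0.43 and 0.50, the dendritic cell list (with MHC class II) -0.08 and 0.74, mast cell and eosinophil markers -0.36 and 0.79, and skeletal muscle markers -0.69 and 0.74. Hypoxia and glycolysis genes (0.77 and -0.61) and ribosomal protein genes (0.90 and -0.74) ran the other way. Neutrophil markers had 0.69 and 0.71, on the same side in both genotypes. These medians are descriptions, and the difference between genotypes was tested gene by gene only, where limma called 0 genes (3475 with an unadjusted p under 0.05).

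Platelet and erythroid genes were higher in the high set as a group in level, but 1 of 11, the platelet glycoprotein Gp9, rose by limma (difference 3.21, adjusted p = 0.0224). The mean level of the 11 ran from 1.61 to 2.59 in the high set, from -0.98 to 1.22 in the low set and from -1.98 to 1.25 in the other 6. Hba-a1, an alpha globin gene, was 8.87, 9.39, 8.80, 9.27 and 8.92 in the high set and 5.97, 8.18, 6.89, 8.29 and 6.37 in the low set, with no overlap (limma adjusted p = 0.0935). Hba-a2 has a nearly identical sequence, and the 2 probes may read the same RNA. The part of blood in the differences was not tested.

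**Figure D4:**
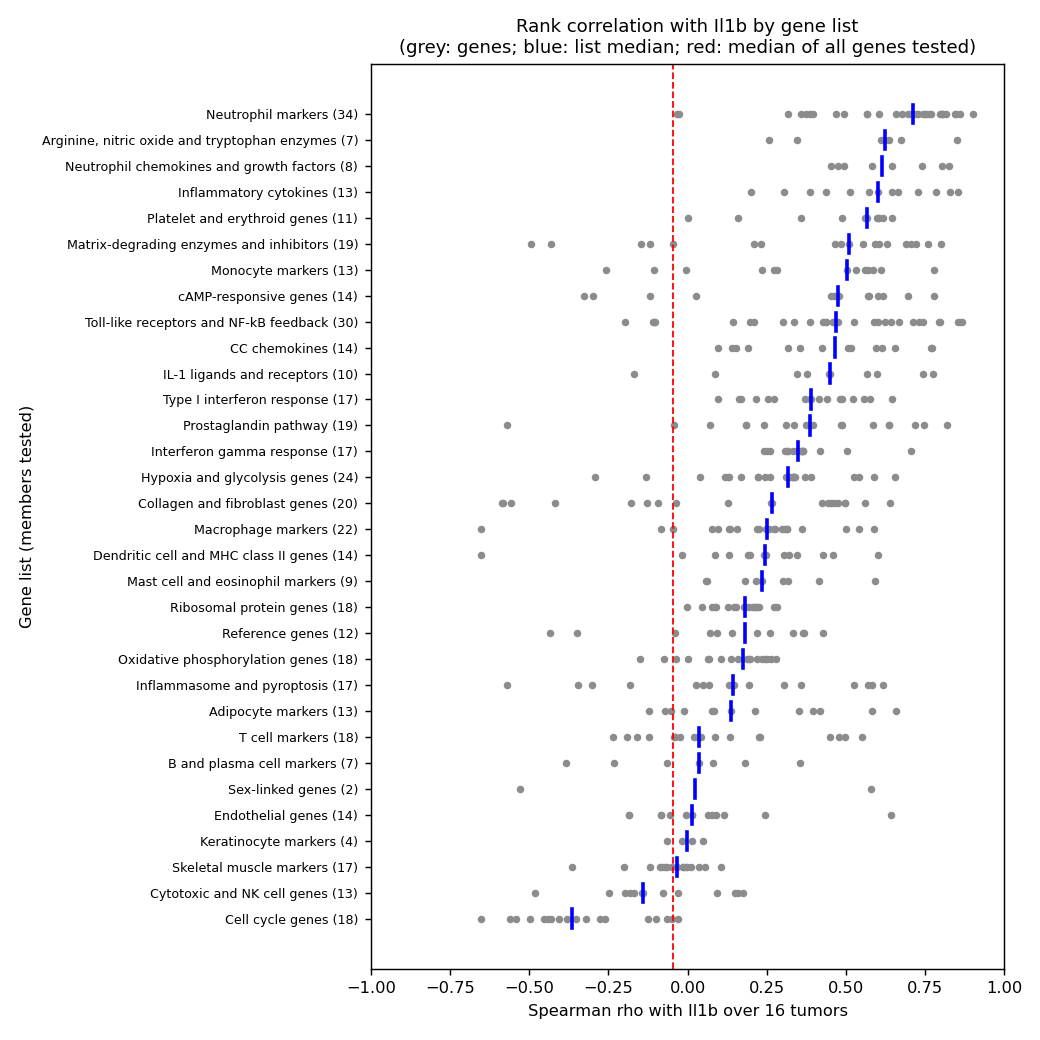
Rank correlation with Il1b over the 16 tumors for the tested members of each gene list, 1 point per gene, with the list's median as a blue bar and the median of all 25500 genes (-0.05) as a dashed line. Neutrophil markers have the highest median (0.71) and cell cycle genes the lowest (-0.37).

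The prostaglandin pathway, which the study addresses through EP2, had 4 of 19 tested genes rising: Ptgs2, Pla2g4a, Ptgir and Alox5ap. Ptgs2 was 5.15, 4.63, 4.09, 3.58 and 3.61 in the high set and 2.07, 2.06, 1.40, 2.80 and 2.91 in the low set, and 1.98 to 3.0 with a median of 2.72 in the other 6, so that every high tumor lay above the rest. The slope was 0.44 ± 0.06 (SE; limma adjusted p = 0.00201) and 0.51 with genotype and sex label (limma adjusted p = 0.0729). Pla2g4a, the phospholipase that frees arachidonic acid, differed by 1.05 (rank correlation 0.82, limma adjusted p = 0.00461). Ptgir, the prostacyclin receptor, differed by 1.81 (limma adjusted p = 0.0146). Alox5ap, the helper of leukotriene synthesis, was the 1 member that rose with the covariates (slope 0.35 ± 0.06 (SE), limma adjusted p = 0.0476).

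The probe of the EP2 gene, Ptger2, did not follow Il1b. Of the knockout tumors only T59B was not well above background for it, and of the wild-type tumors only T82, T1 and T68 were. Where this signal comes from was not tested, so it is not a reading of EP2 in the host. Ptger2 was -3.46, -6.13, -3.08, -4.59 and -3.64 in the high set and -4.81, -4.46, -4.43, -3.09 and -5.26 in the low set, a difference of 0.23 with a rank correlation of 0.24, and it was well above background on 10 of 16 tumor arrays. Ptger4, the other prostaglandin E2 receptor that raises cAMP, was 1.72, 1.28, 2.01, 1.63 and 1.37 in the high set and 0.53, 0.48, 1.03, 1.46 and 1.04 in the low set (rank correlation 0.59, limma adjusted p = 0.11), with knockout tumor T12 of the low set above tumors T65 and T15. Ptges, the terminal prostaglandin E2 synthase, differed by 0.28 (limma adjusted p = 0.341), Ptgs1, the constitutive cyclooxygenase, by 0.90 (limma adjusted p = 0.496), and Ptgis, the prostacyclin synthase, by 1.98 (limma adjusted p = 0.0824). Ptger1, Ptger3 and Hpgd were well above background on 2, 3 and 3 tumor arrays at most and were not tested. Of 14 cAMP-responsive genes, 3 rose (Fos, Nr4a1, counted above among monocyte markers, and Dusp1) and 0 fell. Their mean level ran from 1.44 to 1.75 in the high set and from 0.44 to 1.22 in the low set.

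Enzymes of arginine, nitric oxide and itaconate metabolism rose in 3 of 7 tested genes: Acod1, which makes itaconate in activated macrophages (difference 3.19, limma adjusted p = 0.00237), Nos2, the inducible nitric oxide synthase (1.99, adjusted p = 0.0388), and Arg1, an arginase of myeloid cells (2.23, adjusted p = 0.0158). Of 19 matrix-degrading enzymes and inhibitors, 5 rose (Adam8, Mmp12, Mmp19, Plaur and Timp1) and 0 fell. Timp1, an inhibitor of matrix metalloproteinases, was 6.72, 6.21, 6.59, 7.97 and 6.32 in the high set and 5.30, 5.56, 4.69, 5.77 and 5.54 in the low set (limma adjusted p = 0.0193). Mmp12, a macrophage elastase, differed by 3.24 and was well above background on 2 of 5 low arrays. None of these 8 genes passed with genotype and sex label in the model. Collagen and fibroblast genes (20 tested) and endothelial genes (14 tested) had 0 genes that passed and median rank correlations of 0.27 and 0.01. Among 24 hypoxia and glycolysis genes 1 rose, the glucose transporter Slc2a3 (difference 0.85, limma adjusted p = 0.0274).

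On the falling side, the lowest rank correlation of any gene tested was -0.86, in a transcript without a RefSeq symbol. Among genes with a symbol, chosen as on the rising side, the lowest belonged to Ppl, a plakin that links desmosomes to filaments (-0.84), and Itga10, a collagen-binding integrin chain (-0.83). Ppl was -0.28, -0.05, 0.09, -0.13 and 1.09 in the high set and 1.66, 1.89, 1.53, 1.93 and 2.09 in the low set, with no overlap. Its slope was -0.38 ± 0.04 (SE; limma adjusted p = 0.000179) and -0.41 with genotype and sex label (limma adjusted p = 0.0122). Tns2, a focal adhesion protein, was -0.17, -0.05, -0.52, -0.11 and -0.20 in the high set and 1.06, 0.94, 1.41, 1.58 and 1.64 in the low set. Tns2 fell with a slope of -0.34 ± 0.04 (SE; limma adjusted p = 0.000351) and with the covariates (limma adjusted p = 0.0371). Itga10 fell (limma adjusted p = 0.00461) but not with covariates (limma adjusted p = 0.135).

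The other 9 such genes of the 12 lowest were Mamstr, Agbl5, Gprc5b, Ninl, Rpl37, Trerf1, Acer2, Sfxn4 and Dyrk1b, with rank correlations from -0.81 to -0.77. Trerf1 was well above background on 0 of 5 high arrays and on 9 of 16 in all. The Rpl37 probe was dim, with means of -3.23 in the high and -2.60 in the low set. The 18 listed ribosomal protein genes had mean levels of 8.27 and 8.10 there. Of these 9 genes Mamstr, a coactivator of muscle genes, Sfxn4, a mitochondrial sideroflexin, and Dyrk1b, a protein kinase, fell by limma (adjusted p = 0.0114, 0.0188 and 0.0416). The largest fall in size among genes with a symbol and no overlap was that of Ankrd35, an ankyrin-repeat protein, which was -2.82, -2.99, -3.11, -2.42 and -3.54 in the high set and 0.38, -0.78, 0.69, 0.77 and 0.42 in the low set (difference -3.27, limma adjusted p = 0.00228). Osr2, a transcription factor of limb and palate, differed by -2.12, Aspa, which splits N-acetylaspartate, by -2.02 and Sertad4 by -1.92, and these 3 fell too (limma adjusted p = 0.0114, 0.0332 and 0.0155). Asic1, a proton-gated channel, was well above background on 0 of 5 high arrays and was at least 1.87-fold lower there, though it did not pass limma's slope test (adjusted p = 0.0549). Syt1, a synaptic vesicle protein, was also well above background on 0 of 5 high arrays, was at least 1.59-fold lower and fell (limma adjusted p = 0.0294). Wnk4 and Agtr2, which did not pass, were each well above background on 1 of 5 high and 5 of 5 low arrays.

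All 18 cell cycle genes tested had rank correlations below 0, with a median of -0.37 and a median difference of -0.37, but 0 passed limma's slope test. Mki67, a proliferation marker, was 4.0, 4.37, 4.37, 4.45 and 4.87 in the high set and 5.07, 5.31, 4.93, 4.96 and 5.20 in the low set (difference -0.68, limma adjusted p = 0.114). The sets did not overlap, by a margin of less than 0.1 between tumors T15 and T68. Ccna2, a cyclin of S phase, differed by -0.47 and Mcm2, a replication helicase subunit, by -0.31, also with no overlap. Without the 4 tumors with the highest Il1b the median rank correlation of the list was 0.02. Ribosomal protein genes (18 tested), oxidative phosphorylation genes (18) and reference genes (12) differed by medians of 0.16, 0.06 and 0.09, and 0 of them passed, nor did any of 4 keratinocyte markers.

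Across the 116 named genes, the rank correlations were larger among the male-labelled tumors than among the female-labelled, which spanned 0.63 (SD) of Il1b against 1.78. The median size of the correlation was 0.74 in male-labelled, 0.27 in female-labelled and 0.66 in all tumors. The sign differed from that over all 16 in 2 genes among male-labelled tumors, in 36 among female-labelled tumors, in 3 among wild-type and in 6 among knockout tumors. Centring genes and Il1b within sex label left 0 genes with the other sign, and the median size was 0.55. Many of the 116 were named for the size of their rank correlation over these same tumors. Few changes of sign thus follow in part from that choice, and the same counts were not made over all genes. Without the 4 tumors with the highest Il1b, 7 genes changed sign and the median size was 0.45. A test of the difference in slope between the sex labels called 0 genes with limma (362 with an unadjusted p under 0.05).

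After centring within sex label, 17 genes rose with Il1b (0.0667%) and 14 fell (0.0549%) by rank correlation. All 17 were among the 257 that rose by limma over all tumors, a list from the same arrays and so not independent of them. They included Hdc, Hcar2, Tlr6, Osm, Cxcl1, Ccrl2 and Trem3, and Ppl was among the 14 that fell. These p-values take no account of the means removed by centring.

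Tumor Il1b did not follow the Il1b of the stroma from the same host number. Over 15 hosts, Pearson's r was -0.198 (permutation p = 0.487) and Spearman's rho -0.075 (permutation p = 0.791). Without the 2 hosts farthest from the median, wild-type 65 and 82, r was -0.427 (p = 0.144) and rho -0.192 (p = 0.529, permutation tests). Among male-labelled hosts r was -0.17 and among female-labelled hosts 0.0181. Stroma Il1b ran from -3.68 to 2.93 with a median of 0.79.

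**Figure D5:**
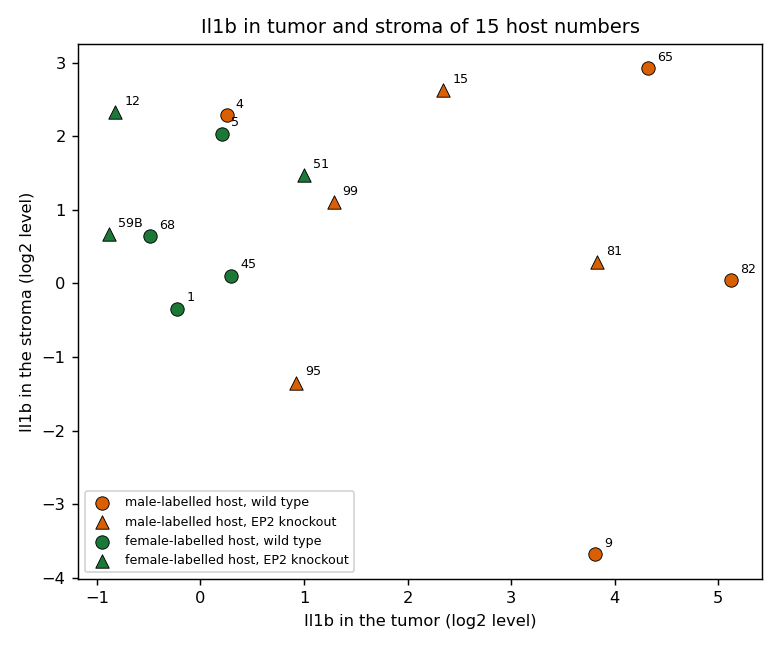
Tumor Il1b against stroma Il1b of the same host number (both log2 relative to the array's 75th percentile), 1 point per host for 15 hosts. Colour marks the sex label and shape the host genotype. The points follow no line (Pearson's r -0.198): of the hosts with the highest tumor Il1b, wild-type 65 had the highest stroma Il1b (2.93) and wild-type 9 the lowest (-3.68).

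Within the stroma, the same rank correlation over its own 16 arrays called 39 of 24228 genes rising (0.161%) and 9 falling (0.0371%), and 11 of the 39 (28.2%) also rose by limma in tumors. Il6, Cd14, Ccl3, Osm and Pf4 rose with stroma Il1b, with rank correlations of 0.88, 0.86, 0.86, 0.85 and 0.86 (each with a permutation-based adjusted p of 0.0454). The same 5 correlations over the tumors were 0.83, 0.80, 0.77, 0.85 and 0.47. Neutrophil markers had a median rank correlation of 0.51 in stroma, with 0 of 33 passing, and macrophage markers 0.64, with 0 of 22 passing, against 0.71 and 0.25 in tumors. By the same rank test 0 of 34 and 0 of 22 passed in tumors, where the counts given earlier are those of limma. A difference between the tissues was not tested. The arrays labelled wild-type stroma 65 and 82, from the hosts with the most tumor Il1b, were the 2 of 16 stroma arrays that correlated better with the mean tumor array (0.981 and 0.990) than with the mean of the other stroma arrays (0.934 and 0.907). Without them, the counts were 1261 rising (5.24%) and 872 falling (3.63%) of 24046 genes, with 12 of 22 macrophage and 7 of 32 neutrophil markers rising and medians of 0.74 and 0.54.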

How the data were processed

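RNA of tumor and stroma was measured on Agilent mouse arrays with 1 colour (Cy3). Per the submitters' processing notes, the authors read the scans with the Feature Extraction software of Agilent, version 10.7.3.1. The column used is its processed signal, a linear intensity per the file headers. The deposited series matrix holds log2 values by the authors, of which 91.3% over the tumors lay within 0.01 of the values computed here once each probe was centred on its median, so its scale and centring follow from that match. It was used as an alternative, with column medians from -0.21 to 0.56.

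The 62976 spots held 59305 that were not controls, of 56605 probes. Outlier spots (75 to 483 per tumor array) were left out, replicate spots of a probe averaged and each array's 75th percentile (402 to 1133 in tumors) subtracted on the log2 scale. From 50.2% to 76.3% of probes were well above background in tumors, and 0 spots were saturated. RefSeq symbols (GRCm38.p6) matched 32994 probes, giving 22911 symbols, and 23611 kept the file's name. The probe with the highest mean stood for a gene. Genes well above background on at least 5 tumor arrays with at most 2 missing values were tested, which gave 25500. The number of arrays limits the precision, and p-values set a difference or correlation against the spread between these samples.

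The tests were rank correlation with 100000 random orders (Python 3.11.15, numpy 2.4.6, pandas 2.3.3, scipy 1.17.1), limma 3.58.1 with statmod 1.5.0 and the R package data.table (1.17.8) in R 4.3.3 and exact permutation for single values. Figures used matplotlib 3.10.9. An at-least fold sets the brighter mean against the dimmer, in which each value was first lifted to its array's lowest signal called well above background. On simulated data with 200 planted genes among 25272 the rank test called 142 of them and 3 others. Planted slopes per SD of Il1b were at least as large as the SD of the noise. The noise was normal, independent between genes and no wider than the SD of the median gene. The share called is thus not the power of the test in these tumors. The 10 tumors, the gene lists and the tests were chosen with earlier results of these data known. Genes were named by rule: members of the IL-1 and neutrophil chemokine lists, the 12 highest and 12 lowest rank correlations and the 8 largest differences each way with no overlap (both among genes with a RefSeq symbol, predicted and numbered transcripts passed over, with a probe well above background throughout the brighter set of 5; ties by the larger difference), up to 4 of each other list by size of rank correlation, the prostaglandin E2 receptors and enzymes, and sex-linked genes. Where 5 or fewer list members passed, those outside the rule were named after their values were seen.  Stroma and tumor share 15 host numbers, a pairing from the sample titles.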

Additional observations from a re-analysis of the deposited data

Results flagged for a closer look

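In 5 of 236 checks of a named gene within a group of 8 tumors (2.12%), 1 tumor stood apart from the others by more than Dixon's 95% critical value, which chance gives in about 1 in 20 groups. Il33 in knockout tumor T51 was 1.86 against a group median of 3.35. Ninl in knockout tumor T81 was -0.77 against a median of 0.02. Mcm2 in knockout tumor T95 was 3.05 against 2.45. Cd68 in wild-type tumor T5 was 3.39 against 4.42. Flt3, a receptor of dendritic cell precursors, was 1.21 in knockout tumor T12 against -0.21.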

How the results depend on the processing

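By rank correlation 0 genes rose and 0 fell in the 16 tumors, also under the other scalings, filters and probe choices and at adjusted p under 0.01 or 0.1. The exceptions follow. With 10000000 orders (chosen after seeing the data) 3 rose. Centring gave 21 rising and 2 falling within genotype, 315 and 199 within slide over 15 arrays, and 17 and 14 within sex label (chosen after seeing the data). The p-values of each centring take no account of the means removed, which can make them too small. Limma with slide as a fixed block called fewer genes than centring within slide. Leaving out 1 tumor gave 0 to 11 rising and 0 to 1 falling, with 11 and 1 without knockout tumor T12 and 6 and 0 without wild-type tumor T45. Limma's slope gave 257 and 127, with genotype and sex label as covariates 44 and 8, and with slide as a fixed block 74 and 7. Over all 32 arrays, with a mean and an Il1b slope for each tissue, limma's tumor slope gave 203 and 69 with the replicate block (host number, correlation 0.1716). Without the block it gave 170 and 46.

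The comparison of 5 with 5 gave 947 lower genes with the second Il1b probe, 1518 higher and 3341 lower with 3 tumors a set, 628 and 1029 with 4, 9 and 2 with 8, and 191 and 109 at a difference of at least 1. Leaving out 1 of the 10 tumors gave 380 to 590 higher (534 without knockout tumor T12, 540 without T15, 590 without wild-type tumor T65) and 712 to 1050 lower (979 without T65, 1050 without wild-type tumor T1). Where the tumor next in rank filled the set, the counts fell, to 169 higher and 198 lower without T82, 179 and 181 without T81, 188 and 259 without wild-type tumor T9, 200 and 211 without T15 and 257 and 244 without T65. Refilled low sets gave 374 and 388 without T12, 300 and 382 without T149, 280 and 367 without T59B, 259 and 337 without T68 and 327 and 525 without T1. Without the 2 tumors farthest from the median Il1b the refilled sets gave 212 and 180. Of 341 and 630 genes, normexp with quantile scaling kept 248 and 420, quantile scaling 256 and 441, the bright-probe percentile 289 and 398 and the series matrix 334 and 627. Normexp used the median spot signal, chosen after seeing the data. The cause of these differences was not tested, other than that smaller sets overlap less often by construction.

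Il1b by genotype was 3.53 on slide 2 and 1.04 on slide 3, each with 1 male-labelled knockout tumor. It was -1.13 to -0.23 leaving out 1 tumor. By sex label it was 3.43 in wild-type and 2.31 in knockout tumors (exact p = 0.0571 each), and 2.53 to 3.22 leaving out 1 tumor. Tumor against stroma Il1b gave r = 0.0181 in female-labelled and rho = 0 in male-labelled hosts. The stroma counts were 1261 and 872 without wild-type stroma 65 and 82.

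Of 3806 rank correlations of the 116 named genes under alternatives, 3690 kept their sign and side of the threshold, 93 passed it newly and 23 changed sign. Many of these genes were named for the size of their rank correlation in the same tumors, which favours a kept sign. The signs changed without the 4 highest tumors in Il1r1 (-0.42), Il33 (-0.098), Csf3 (-0.028), Ptges (-0.0070), Kif11 (0.105), Slc2a3 (-0.084) and Csf3r (0.056), and without the 2 farthest in Il1r1 (-0.37) and Csf3r (0.0066). Il18r1 was 0.021 with the mean of all probes and 0.035 with the second Il1b probe. Csf3r was 0.056 with the bright-probe percentile and 0.164 centred within slide. Leaving out 1 tumor turned the sign of Il1r1 (range -0.11 to 0.214), Il18r1 (-0.246 to 0.0071) and Csf3r (-0.171 to 0.125). Pearson's r was run for named genes only. Signal near background limits Ptger2, Csf2, Trem3, Mmp12 and Trerf1, among others.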
